A study of Mus musculus with 14 samples.

Results

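Heat shock and unfolded protein response genes encode the machinery with which a cell folds, refolds and degrades its proteins, and the factors that switch this machinery on. The set followed here held 40 genes, given by symbol: 15 of the heat shock branch, 15 of folding in the endoplasmic reticulum (ER) and 10 of the integrated stress response with its amino acid synthesis targets. Of these, 31 had a probe among the 13661 genes named on the array, and 27 were measured in enough samples to be tested (11 of heat shock, 11 of ER folding and 5 of the integrated stress response). Each gene was represented by its best-measured probe, the one with a value in the most samples.

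The samples were astrocytes grown from the brains of newborn mice and passaged once. They came from wild-type mice, from mice null for connexin43 (Cx43, encoded by Gja1), and from wild-type cultures transfected with 20 ug of Cx43 siRNA. Replicates 3, 4 and 6 of wild type, 1 to 4 of null and 1 to 4 of siRNA were used, 11 of 14 samples. The titles call the cells cortical, while the protocol describes whole brain tissue. The time after transfection was 36 h in the design text, whereas the protocol for protein gives 48 h. The labels name neither a mock-transfected nor a control-siRNA group, so transfection and loss of Cx43 cannot be told apart in the siRNA samples. The design text speaks of independent cultures, but nothing ties a sample to one, so a p-value here reflects how far these samples spread, a spread that could be technical.

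Cytosolic chaperones such as the Hspa and Dnaj proteins hold unfolded chains, and heat shock factor 1 induces their genes when unfolded protein accumulates. In the ER, 3 sensors respond to unfolded protein. Ern1 splices the Xbp1 message, Atf6 is cleaved into a transcription factor, and Eif2ak3 phosphorylates the initiation factor eIF2, which slows protein synthesis while favouring translation of Atf4. Other kinases phosphorylate the same factor when amino acids run short or double-stranded RNA is present, so Atf4 and its targets form a branch shared by several stresses.

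Promoters of 34 of the 40 genes were found in a RefSeq table of the GRCm38.p6 assembly, as 300 bases from 250 before to 50 after the annotated start. The amino acid response element bound by Atf4 and its partners was searched as TGATGNAA on both strands. It stood in 3.969% of all 32851 promoters and in those of 4 member genes, Asns, Chac1, Trib3 and Herpud1. The ER stress element, searched as CCAAT and CCACG with any 9 bases between, stood in 0.119% of all promoters and in 6 member genes, Hspa5, Hsp90b1, Calr, Canx, Pdia6 and Dnajc3. Its second form, ATTGG and CCACG with any 1 base between, stood in 0.037% and in 1 member, Herpud1. The heat shock element, GAA, TTC and GAA with any 2 bases between neighbours, stood in 0.603% of all promoters and in 3 members, Hspd1, Hspe1 and Hsph1. A match describes these letters alone, and no binding was measured.

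The promoter of Asns is shown because its 3 groups of samples separated. It lies at chr6:7693160-7693459 on the minus strand, and capitals mark the amino acid response element. It overlaps a match to the short heat shock form GAANNTTC, which stood in 7.86% of all promoters and in 9 member genes.
Asns: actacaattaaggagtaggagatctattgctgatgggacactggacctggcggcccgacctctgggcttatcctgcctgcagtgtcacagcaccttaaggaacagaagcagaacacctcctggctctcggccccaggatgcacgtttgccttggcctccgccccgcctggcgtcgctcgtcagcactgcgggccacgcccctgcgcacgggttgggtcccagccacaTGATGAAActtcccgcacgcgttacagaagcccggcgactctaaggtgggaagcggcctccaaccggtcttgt
The promoter of Herpud1 is shown because this ER gene moved opposite to Asns. It lies at chr8:94386179-94386478 on the plus strand, and capitals mark, in order, an amino acid response element read on the opposite strand and an ER stress element of the second form.
Herpud1: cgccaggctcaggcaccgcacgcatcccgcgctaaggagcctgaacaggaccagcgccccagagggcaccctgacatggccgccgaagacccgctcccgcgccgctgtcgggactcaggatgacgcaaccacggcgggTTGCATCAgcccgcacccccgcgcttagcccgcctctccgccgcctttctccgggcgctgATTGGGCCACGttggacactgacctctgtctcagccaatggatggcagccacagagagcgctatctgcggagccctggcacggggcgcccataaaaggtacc
The promoter of Hspe1 is shown as the heat shock branch's counterpart, a gene with a full heat shock element that passed no test. It lies at chr1:55087898-55088197 on the plus strand. Capitals mark overlapping matches on both strands, and the same bases belong to the promoter of its neighbour Hspd1, which is read the other way.
Hspe1: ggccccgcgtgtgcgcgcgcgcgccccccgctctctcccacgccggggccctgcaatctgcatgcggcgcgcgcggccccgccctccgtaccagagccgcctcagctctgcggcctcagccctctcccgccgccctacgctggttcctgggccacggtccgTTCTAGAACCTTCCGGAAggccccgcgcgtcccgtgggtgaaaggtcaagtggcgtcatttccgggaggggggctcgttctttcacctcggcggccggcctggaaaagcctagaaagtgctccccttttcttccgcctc

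The deposited values were log2 intensities centred on 0 in each sample, so a value says how a probe stood against the middle of its own array. Of 33600 probes, 53.1% to 79.8% had a value per sample. The rule that defines the set also fixes these 11 samples and leaves out wild-type replicates 1, 2 and 5. Those correlated with the other samples at r = 0.370, 0.380 and -0.020 across probes, against 0.894 to 0.948 for the 11 used. In replicates 1 and 2 many spots matched the other samples better 1 grid row away: of 1344 columns of spots within a printed block, 832 were moved by 1 row to realign them, 401 stayed and 88 could not be placed. In replicate 5 the SD over probes was 0.476, against 2.32 to 2.81 in the 11 used, so it may hold another quantity. The target Gja1 read 6.08, 7.53 and 4.82 in wild type, -1.16, -1.06, 2.82 and 3.03 in null samples and 1.93, 2.13, 5.47 and 5.70 with siRNA. All null samples were below all wild-type samples, and the siRNA samples overlapped both groups. No source used here says whether the probe lies in the stretch deleted from the null allele. Gja1 passed the test in null minus wild type (-3.31 ± 0.58, SE, limma adjusted p = 0.0478) and in null minus siRNA (-2.90 ± 0.48, adjusted p = 0.00724), but not in siRNA minus wild type (-0.41 ± 0.58, adjusted p = 0.733), although the design text gives a lower Cx43 mRNA after siRNA. With 1 sample left out at a time, null minus wild type passed in 2 of 11 fits. Of 10 astrocyte markers measured in at least 9 samples, 9 were above 0 in wild type, while the probe of the defining marker Gfap had no value in any sample.

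Replicates 1 and 2 differed from those of higher number across the whole array, so every test below carries this split and the dye as covariates. Wild type had only the higher numbers, so differences against wild type rest mainly on replicates 3 and 4 of the other groups. A gene passed where the limma p, adjusted by Benjamini-Hochberg over all 16307 tested probes, was under 0.05.

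The integrated stress response genes read higher in siRNA than in wild-type samples at all 5 tested members, and 1 of them, Atf4, passed the test. Against the siRNA samples, 4 of the 5 read lower in null samples, and Asns and Ppp1r15a passed. The median difference of the 5 genes was 1.25 in siRNA minus wild type and -1.16 in null minus siRNA, where all tested probes had medians of 0.13 and 0.07. In null minus wild type the median was 0.15, against 0.20 for all tested probes, and no member of the branch passed.

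Asns, which makes asparagine and is induced by Atf4 when amino acids are short, gave the clearest separation. It read 2.09, 1.48 and 2.45 in wild type, 1.34, 1.07, 1.20 and 1.16 in null samples and, under siRNA, 3.08, 3.45, 2.97 and 3.28. The 4 siRNA samples were the highest, the 4 null samples the lowest and the 3 wild-type samples between them, with no overlap of any pair of groups, and replicates 1 and 2 did not stand apart. Null lay 2.00 ± 0.31 (SE) below siRNA on the log2 scale, 4.00-fold, with an adjusted p of 0.00512 in the limma fit. The difference was -2.06 within replicates 1 and 2 and -1.94 within replicates 3 and 4. The difference of siRNA from wild type was 1.15 ± 0.37 (adjusted p = 0.0851) and that of null from wild type -0.85 ± 0.37 (adjusted p = 0.301), neither past the threshold.

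Atf4, the transcription factor at the centre of the branch, read 2.52, 3.13 and 3.21 in wild type. The null samples lay at 1.14, 1.09, 3.81 and 4.21, and those with siRNA at 2.73, 2.97, 4.33 and 4.88. Replicates 1 and 2 were low and replicates 3 and 4 high in both groups, and siRNA lay above null at each replicate number. The fitted difference of siRNA from wild type was 2.00 ± 0.39 (SE, adjusted p = 0.0122), 4.00-fold, and within replicates 3 and above it was 1.65. Null minus siRNA was -1.16 ± 0.32 (adjusted p = 0.0549), just outside the threshold. A further Atf4 probe had no value in null replicates 1 and 2 and was not tested. It read 4.27, 3.69 and 4.21 in wild type, 4.10 and 4.45 in null samples and 3.42, 3.90, 4.05 and 4.75 with siRNA, so the groups overlapped there. The call at the tested probe was lost without siRNA replicate 4 (adjusted p = 0.0612), and with wild-type replicates 1 and 2 realigned to the grid and added the difference was 1.13 (adjusted p = 0.169).

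Ppp1r15a, the phosphatase subunit that reverses eIF2 phosphorylation and is itself an Atf4 target, read 2.36, 1.52 and 3.14 in wild type. Null samples lay at 0.62, 0.76, 2.23 and 1.73, and siRNA samples at 1.92, 2.62, 3.74 and 4.12. The groups overlapped, but within each replicate number siRNA was the higher of the pair. Null minus siRNA was -1.77 ± 0.38 (SE, adjusted p = 0.0222), with -1.58 in replicates 1 and 2 and -1.96 in replicates 3 and 4. It passed in 6 of 11 fits that each left out 1 sample, and the adjusted p was 0.0543 without null replicate 2, 0.0881 without null 4, 0.0523 without siRNA 2, 0.0691 without siRNA 3 and 0.0888 without siRNA 4. The difference of siRNA from wild type, 1.52 ± 0.46, did not pass (adjusted p = 0.0678). With the replicate number as a block, a fit that leaves out wild-type replicate 6, it was 1.90 with an adjusted p of 0.0227.

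Ddit3, a transcription factor that promotes cell death under prolonged ER stress, read 1.87, 1.86 and 2.98 in wild type. Null samples lay at 1.76, 1.95, 2.46 and 2.72, and siRNA samples at 3.10, 3.96, 2.91 and 3.34. All 4 siRNA samples were above all 4 null samples, and 3 of them above all wild-type samples. Neither fitted difference passed, at 1.25 ± 0.43 for siRNA minus wild type (SE, adjusted p = 0.104) and -1.11 ± 0.36 for null minus siRNA (adjusted p = 0.0901).

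Sesn2, a stress-induced inhibitor of growth signalling, was near the middle of the array. It read -0.50, -0.94 and 0.37 in wild type, -0.27, -0.73, 0.59 and 1.37 in null samples and -0.32, -0.13, 0.00 and 0.46 with siRNA, with all groups overlapping. Of the remaining members, Trib3, Eif2ak3 and Psat1 had no named probe and Chac1 had no value in any of the 11 samples. Phgdh, the first enzyme of serine synthesis, was not tested: it read 0.01, -0.65 and -2.78 in wild type, 1.45 and 0.38 in null replicates 3 and 4, and -2.98, 2.62 and 2.64 in siRNA replicates 2 to 4.

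**Figure D1:**
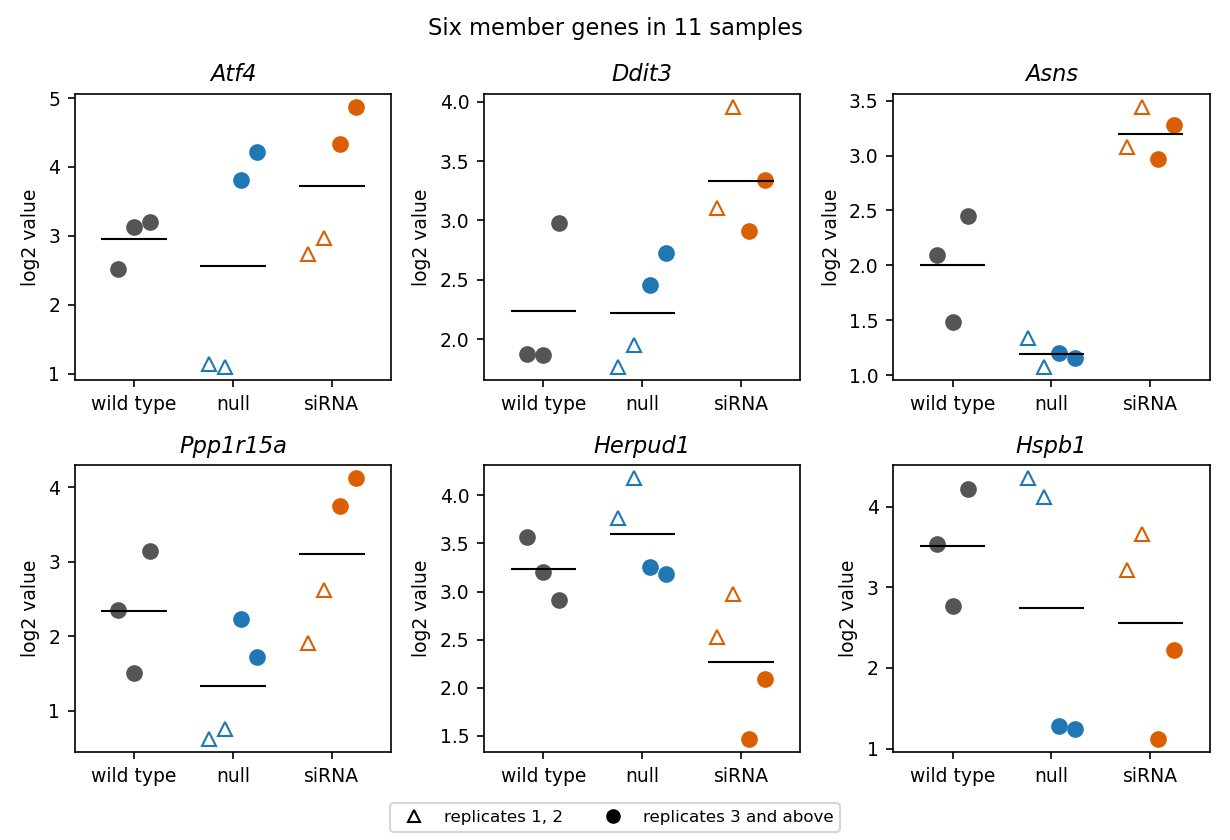
Log2 values of 6 member genes in the 11 samples, by group; triangles are replicates 1 and 2, filled circles replicates 3 and above, and bars the group means. Asns separated all 3 groups, with null samples at 1.07 to 1.34 and siRNA samples at 2.97 to 3.45, while Atf4, Ppp1r15a, Hspb1 and Herpud1 also differed between the replicate numbers.

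The ER folding genes did not move as a group. Of the 11 tested, 5 read higher and 6 lower in siRNA than in wild type, with a median of -0.03, and Herpud1 alone passed, downward. In null minus siRNA 7 read higher and 4 lower, with a median of 0.11, and Herpud1 alone passed, upward. In null minus wild type the median was -0.04 and none passed.

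Herpud1 sits in the ER membrane and helps to deliver misfolded proteins to the proteasome. It read 3.57, 3.20 and 2.91 in wild type, 3.76, 4.18, 3.25 and 3.18 in null samples and 2.52, 2.97, 1.47 and 2.09 with siRNA. All siRNA samples lay below all null samples, and 3 of the 4 below all wild-type samples. It fell by 1.37 ± 0.37 (SE) on the log2 scale in siRNA minus wild type (adjusted p = 0.0446), 2.59-fold. Null lay 1.33 ± 0.31 above siRNA (adjusted p = 0.0279), by 1.22 within replicates 1 and 2 and by 1.44 within replicates 3 and 4. These calls were close to the threshold: with 1 sample left out at a time, the fall in siRNA passed in 1 of 11 fits, the one without wild-type replicate 6 (adjusted p = 0.0342), and the null excess in 4 of 11, with adjusted p from 0.0169 to 0.106. After a local spatial trend was removed from each array, null minus siRNA was 0.70 (adjusted p = 0.0708). With wild-type replicates 1 and 2 realigned and added, siRNA minus wild type turned to 0.43, but Herpud1 read -0.51 and 0.54 in those replicates, far from 2.91 to 3.57 in the other wild-type samples, so its spot may be misplaced there.

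The other partners of Herpud1 in ER-associated degradation gave no call. Sel1l, the adaptor of the degradation ligase, read -1.69, -0.62 and -0.61 in wild type and -0.31, -0.10, -0.22 and 0.18 in null samples, which all lay above wild type. Its siRNA values were -1.42, -0.45, 0.13 and 0.76. The differences from wild type, 1.36 ± 0.40 for null (SE, adjusted p = 0.132) and 1.23 ± 0.40 for siRNA (adjusted p = 0.0883), did not pass. Edem1, which pulls misfolded glycoproteins out of the folding cycle, read 1.76, 1.90 and 2.25 in wild type and 1.33, 1.56, 0.14 and 0.67 in null samples, again without overlap, and its fitted difference was -0.97 ± 0.50 (adjusted p = 0.382).

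Among the lumenal chaperones, Hsp90b1 differed from wild type by -0.80 ± 0.41 in null and by -0.24 ± 0.41 in siRNA samples (SE, adjusted p = 0.382 and 0.79). Calr, which binds calcium and nascent glycoproteins, differed by 0.08 and -0.03. The disulfide isomerases Pdia3 and Pdia4 differed from wild type by -0.71 and -0.23 in null and by 0.13 and -0.61 in siRNA samples. None of these passed. The transcription factor Xbp1 read 4.14, 3.57 and 3.31 in wild type and 3.02, 3.06, 3.01 and 3.20 in null samples, all null samples being lower, with a difference of -0.53 ± 0.38 (adjusted p = 0.561). Splicing of its message was not measured by a gene-level probe.

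Hspa5, the main ER chaperone and the usual marker of ER stress, could not be tested. It read 1.64, 0.86 and 5.24 in wild type, 3.78, 3.54, 6.71 and 6.33 in null and 4.38 and 4.39 in siRNA replicates 1 and 2, with no value in siRNA replicates 3 and 4. Wild type alone ranged over more than 4 log2 units. Ern1 had 2 values in the 11 samples, and Atf6 and Pdia6 had no named probe.

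Canx, the membrane chaperone of glycoproteins, was printed at 17 spots under 1 accession and shows how far spots of one gene can differ. Its chosen spot read 5.51, 6.86 and 7.02 in wild type, 5.42, 5.26, 5.89 and 6.83 in null samples and 4.91, 5.27, 6.16 and 6.71 with siRNA, and its differences from wild type were 0.09 and 0.00. Over the 17 spots, null minus wild type ran from -2.32 to 1.05 with a median of -0.15, and siRNA minus wild type from -0.85 to 1.64 with a median of 0.00. No spot passed in any comparison of groups. The SD of the spots within 1 sample was 0.38 to 1.10. No source used here says whether the 17 spots carry the same oligonucleotide.

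**Figure D2:**
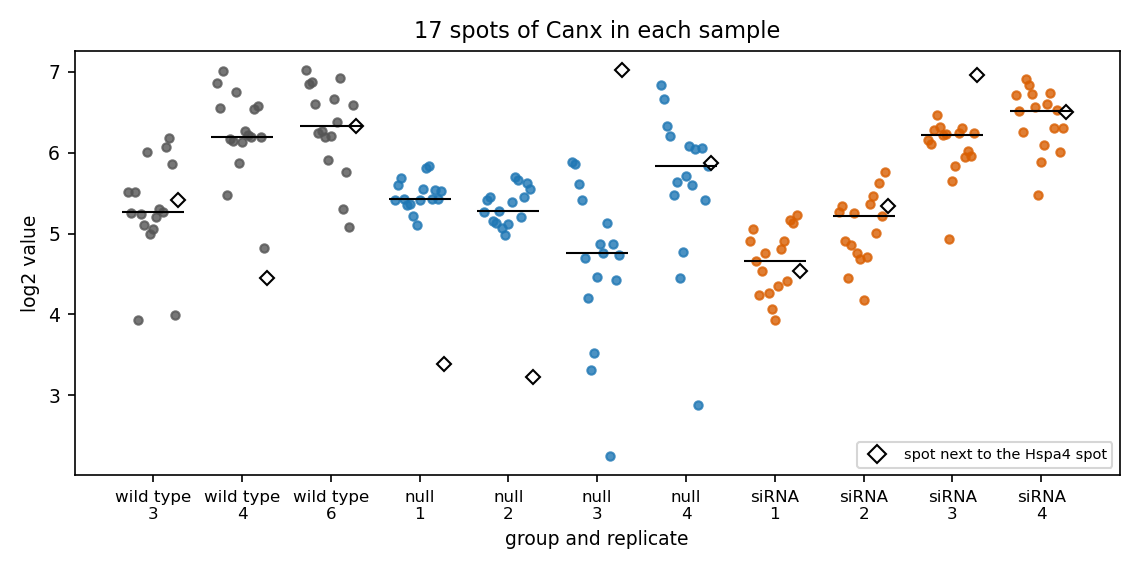
Log2 values of the 17 Canx spots in each of the 11 samples; horizontal lines are the medians of the spots and the diamond is the spot next to that of Hspa4. Spots of the same gene spanned from 2.25 to 7.02 in null replicate 3, where their SD was 1.10.

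The heat shock genes gave 1 call, a fall of Hspb1 in siRNA samples. Of the 11 tested, 8 read higher and 3 lower in siRNA than in wild type (median 0.20), 4 higher and 7 lower in null than in wild type (median -0.16), and 2 higher and 9 lower in null than in siRNA (median -0.45).

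Hspb1, a small heat shock protein that binds actin and unfolded chains, read 3.54, 2.77 and 4.22 in wild type. Null samples lay at 4.36, 4.12, 1.28 and 1.25, and siRNA samples at 3.22, 3.66, 1.12 and 2.22. Replicates 3 and 4 were low in both manipulated groups, below every wild-type sample, while replicates 1 and 2 lay between 3.22 and 4.36, near the wild-type values. The fitted difference from wild type was -2.10 ± 0.50 in siRNA (SE, adjusted p = 0.0286) and -1.91 ± 0.50 in null samples (adjusted p = 0.0962), and null and siRNA differed by 0.19 ± 0.42 (adjusted p = 0.814). The siRNA call rests on a correction for replicate number that no wild-type sample of low number could check. It did not pass without wild-type replicate 3 (adjusted p = 0.0773), wild-type replicate 6 (0.0578) or siRNA replicate 3 (0.0984). With the replicate number as a block, a fit that also leaves out wild-type replicate 6, it was -1.79 with an adjusted p of 0.0622. With wild-type replicates 1 and 2 realigned and added it was -1.38 (adjusted p = 0.112).

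The Hspa genes gave no call between groups. Hspa4, a nucleotide exchange factor for the ATP-dependent Hspa chaperones, read 2.58, 1.52 and 4.11 in wild type, 1.30, 1.12, 4.44 and 2.67 in null samples and 2.65, 3.46, 4.77 and 4.18 with siRNA. Its siRNA minus wild-type difference was 1.92 ± 0.67 (SE, adjusted p = 0.108). With the replicate number as a block, a fit that leaves out wild-type replicate 6, it passed at 2.65 (adjusted p = 0.00875). Null minus siRNA passed in that fit too, at -1.38 (adjusted p = 0.0369). Its spot lay beside a Canx spot, 1 grid row away, which read 5.42, 4.45 and 6.33 in wild type, 3.38, 3.23, 7.02 and 5.88 in null samples and 4.53, 5.34, 6.95 and 6.50 with siRNA. Both spots were lowest in null replicates 1 and 2; whether a local effect on the array took part was not tested for this pair. Hspa9, the mitochondrial member, differed by 1.04 ± 0.47 in siRNA minus wild type (adjusted p = 0.204). Hspa8, the constitutive member, read 5.65, 7.59 and 6.89 in wild type, 7.37, 5.76 and 8.28 in null replicates 2 to 4, and 7.18, 7.59 and 6.63 in siRNA replicates 1 to 3. Its groups overlapped, and while the fitted siRNA minus wild type difference was 1.07 ± 0.63 (adjusted p = 0.355), within replicates 3 and above it was -0.078.

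The mitochondrial chaperonin pair, Hspd1 and Hspe1, gave no call. Hspe1 read 4.47, 4.55 and 4.22 in wild type, 4.00, 4.22, 4.34 and 3.89 in null samples and 4.37, 4.78, 4.10 and 5.01 with siRNA. Its differences from wild type were 0.18 ± 0.37 in siRNA and -0.28 ± 0.37 in null samples, and those of its partner Hspd1 were 0.37 ± 0.41 and -0.16 ± 0.41 (SE). The stress-inducible Hsph1, whose promoter window also holds a full heat shock element, differed by 0.31 ± 0.48 and -0.25 ± 0.48.

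The remaining cytosolic members gave no call either. Dnajb1, an inducible partner of the Hspa chaperones, read 3.41, 2.22 and 3.15 in wild type and 3.83, 3.76, 4.29 and 4.05 in null samples, all above wild type, with a difference of 0.89 ± 0.45 (SE, adjusted p = 0.373). The cochaperone Bag3 read 2.00, 1.60 and 2.05 in wild type and 1.28, 1.50, 1.12 and 1.34 in null samples, all below, with a difference of -0.40 ± 0.40 (adjusted p = 0.698). Hsp90aa1 differed from wild type by -0.53 in null samples and -0.38 with siRNA, and Dnaja1 by -0.07 and 0.20. Hspa1a, Hspa1b, Hsp90ab1 and the heat shock factor Hsf1 had no named probe and were not analysed here.

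Over the 3 branches, siRNA minus wild type gave 3 calls among the 27 tested members, Atf4 higher and Herpud1 and Hspb1 lower, while 7.52% of all tested probes were called. Null minus siRNA also gave 3, Herpud1 higher and Asns and Ppp1r15a lower, beside 6.41% of all tested probes. Null minus wild type gave none of 27 in limma, beside 0.362% of all tested probes (0.276% higher and 0.0859% lower). There 4 members had an unadjusted p under 0.05 with at least a 1.5-fold change, Sel1l and Sesn2 higher and Asns and Hspb1 lower. That count is near the background, as 15.6% of all tested probes met the same rule. Both comparisons that involve siRNA share its samples, and those against wild type share the wild-type samples. The term for replicate number was fitted on null and siRNA samples together, so each difference from wild type also draws on the other manipulated group.

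No overlap between groups was seen for 6 of 27 members in null against wild type (Dnajb1, Bag3, Sel1l, Edem1, Xbp1 and Asns), beside 8.14% of all tested probes. It was seen for 3 in null against siRNA (Herpud1, Ddit3 and Asns), beside 9.61%, and for 1 in siRNA against wild type (Asns), beside 15%.

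All of these calls need samples of consecutive number to be independent. Replicates 1 and 2, and 3 and 4, of the null and siRNA groups carried opposite dyes and correlated across probes at 0.926 to 0.991, against 0.739 for null and 0.770 for siRNA replicates 1 and 3. Among wild-type samples, replicates 3 and 4 correlated at 0.943, and the non-consecutive pairs 4 with 6 and 3 with 6 at 0.916 and 0.874. When such pairs were treated as a random block, none of the 27 members passed in any comparison of groups: the adjusted p was 0.0568 for Asns, 0.149 for Ppp1r15a and 0.186 for Herpud1 in null minus siRNA, and 0.0749 for Atf4, 0.118 for Hspb1 and 0.236 for Herpud1 in siRNA minus wild type.

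**Figure D3:**
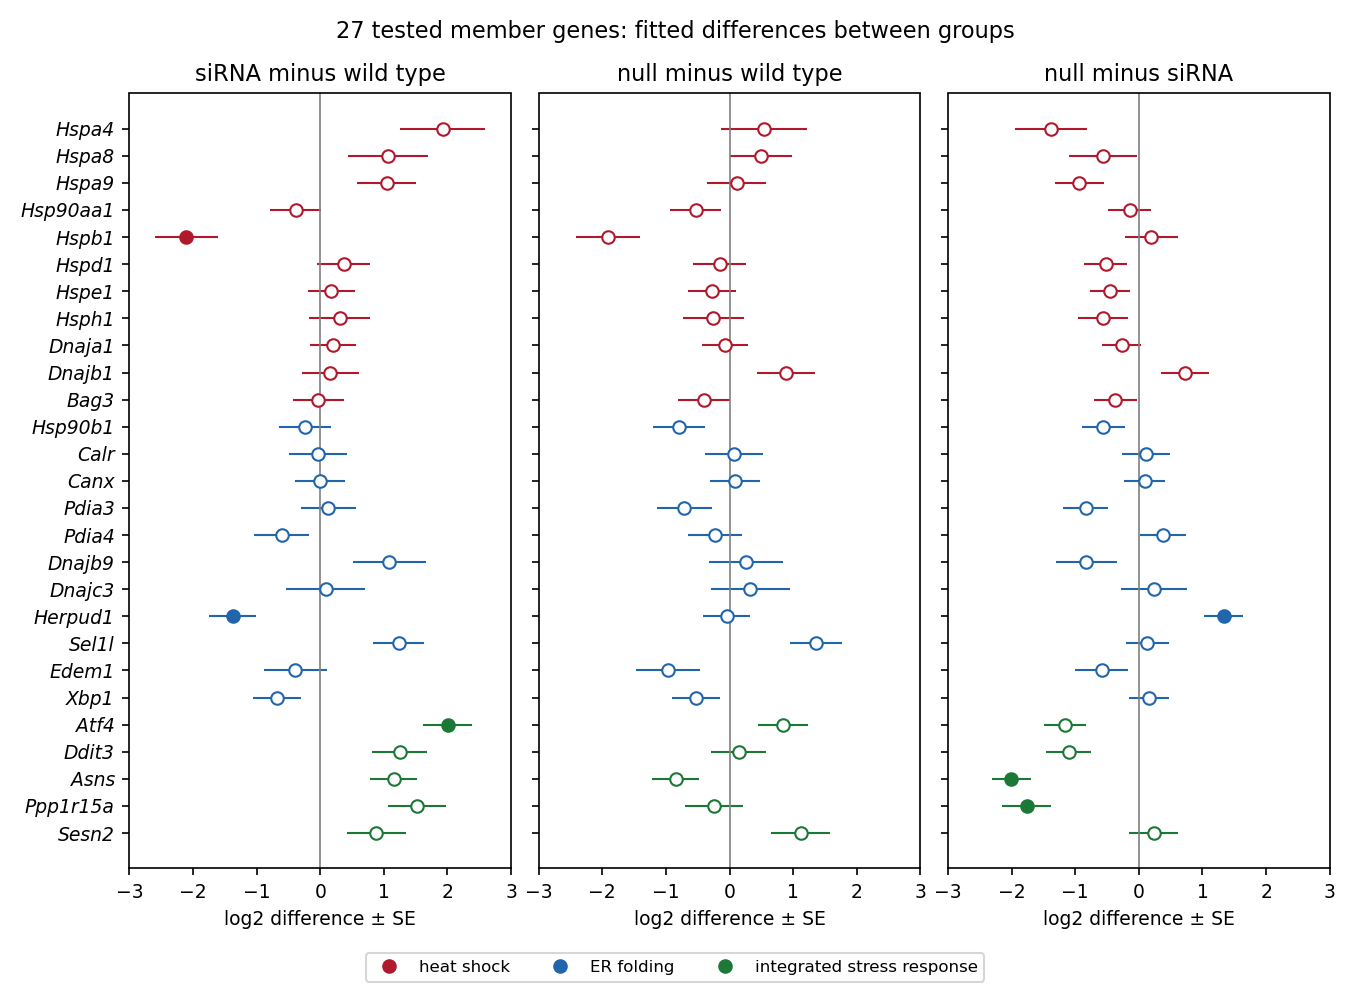
Fitted log2 differences with their SE for the 27 tested members in the 3 comparisons of groups, coloured by branch; filled points passed the adjusted p threshold of 0.05. All 5 genes of the integrated stress response lie right of 0 in siRNA minus wild type, and none of the 27 passed in null minus wild type.

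Samples of one group differed among themselves mainly by replicate number. In replicates 1 and 2 minus 3 and above, 10 of 27 members passed, beside 46.5% of all tested probes (6.13% higher and 40.4% lower in replicates 1 and 2), and the median difference was -0.65, against -0.76 for all tested probes. Lower in replicates 1 and 2 were Hspa4, Hspa9, Dnaja1, Hsp90b1, Canx, Dnajb9, Atf4 and Ppp1r15a, and Hspb1 (2.37 ± 0.42, SE) and Herpud1 (0.86 ± 0.31) were higher.

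Dnajb9, an ER cochaperone induced through Xbp1, moved furthest. It read -1.79 and -1.31 in null replicates 1 and 2 and 1.95 and 1.21 in replicates 3 and 4, then -0.62 and -0.46 against 2.32 and 2.12 in siRNA samples. Wild type read 2.48, 1.28 and -0.37. The difference between the replicate numbers was -2.94 ± 0.48 (SE, adjusted p = 0.000465), while null minus siRNA was -0.83 ± 0.48 (adjusted p = 0.315). After the local spatial trend was removed, 11 members passed, 4 higher and 7 lower, beside 46.7% of all tested probes, and Canx turned from -1.18 to 0.58. The median over all tested probes then went from -0.76 to -0.10, and the higher share of the called probes from 13.2% to 43.1%.

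The difference between null and siRNA was compared between the replicate numbers by an interaction term over the 8 samples of both groups. It passed for 2 of 27 members, Dnajc3 and Edem1, beside 18.7% of all tested probes. Dnajc3, a cochaperone that also inhibits eIF2 kinases, read 2.61 and 2.56 in null against 0.94 and 1.23 in siRNA replicates 1 and 2. In replicates 3 and 4 it read 2.08 and 1.49 in null against 2.75 and 2.89 in siRNA samples, so the order of the groups turned around. Asns (-2.06 and -1.94), Ppp1r15a (-1.58 and -1.96) and Herpud1 (1.22 and 1.44) kept a similar size in both.

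**Figure D4:**
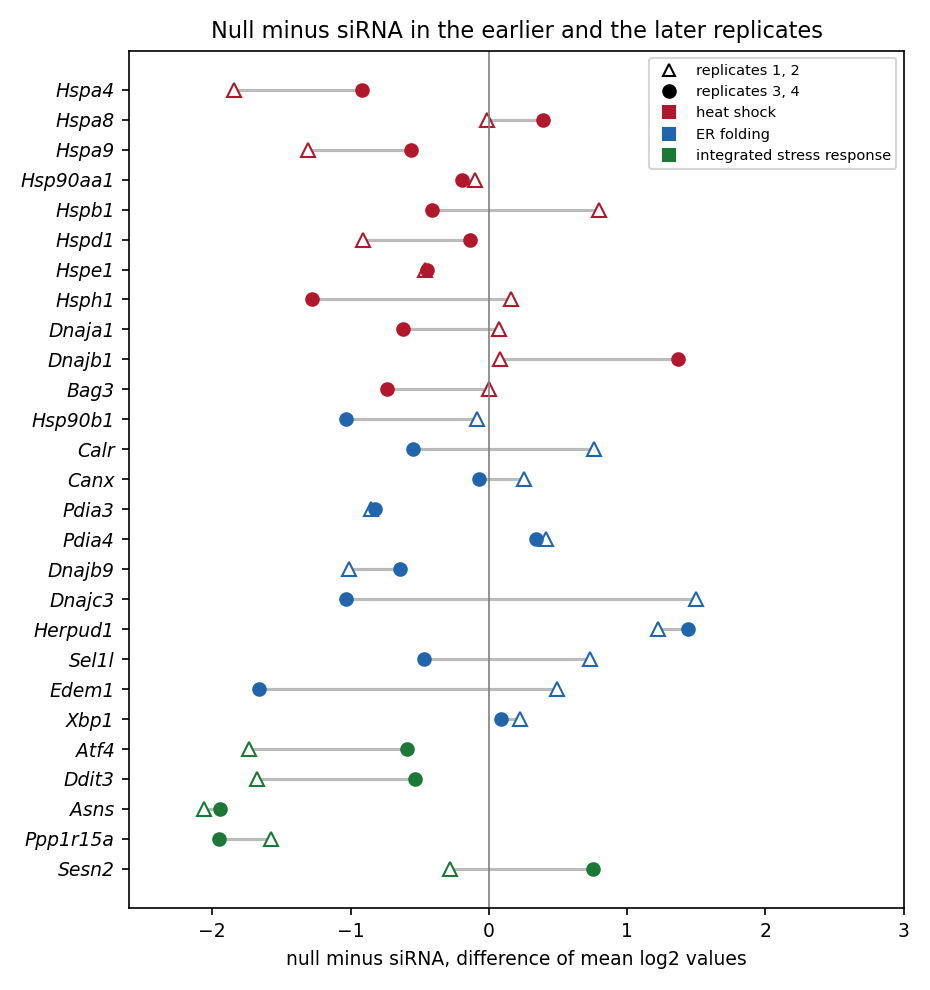
Null minus siRNA, as the difference of mean log2 values, within replicates 1 and 2 (open triangles) and within replicates 3 and 4 (filled circles) for the 27 tested members, coloured by branch. Asns, Ppp1r15a and Herpud1 lay on the same side of 0 in both with similar sizes, while Dnajc3 turned from 1.50 to -1.03 and Edem1 from 0.49 to -1.66.

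Other genes of the same pathways were read from 3 further lists. Of 41 tested genes of the stress response and amino acid list, which holds transfer RNA synthetases, amino acid transporters and further Atf4 targets, 33 read higher in siRNA than in wild type and 6 passed, all higher, with a median of 0.62. With consecutive replicates as a random block none of these 6 passed, with adjusted p from 0.105 to 0.256. Over all tested probes, 5.4% passed upward and the median was 0.13. In null minus siRNA 31 of the 41 read lower and 6 passed, all lower, beside 2.6% of all probes, with a median of -0.28. The random block left 1 of these 6, Nupr1, and the others had adjusted p from 0.0719 to 0.267. In null minus wild type none of the 41 passed, and the median was 0.05.

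Nupr1, a small stress-induced chromatin protein, was the clearest of them. It read 1.33, 1.33 and 1.69 in wild type, 0.65, 1.11, 0.13 and 1.34 in null samples and 3.65, 4.37, 2.48 and 3.44 with siRNA, so every siRNA sample was above every other sample. It rose by 1.85 ± 0.39 in siRNA minus wild type (SE, adjusted p = 0.018), and null lay at -2.68 ± 0.33 from siRNA (adjusted p = 0.00121). The latter held with consecutive replicates as a random block (adjusted p = 0.0164), and the former did not (0.105).

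The glycine transporter gene Slc6a9 read 0.31, 0.28 and 0.59 in wild type, -0.76, -0.50, 0.64 and 0.30 in null samples and 1.42, 2.22, 1.70 and 2.05 with siRNA, again with every siRNA sample above all others. Its differences were 1.78 ± 0.40 for siRNA minus wild type (SE, adjusted p = 0.0225) and -1.93 ± 0.33 for null minus siRNA (adjusted p = 0.0081). The synthetase gene Eprs differed by 2.70 ± 0.55 in siRNA minus wild type (adjusted p = 0.0182), and Slc1a4, a transporter of neutral amino acids, by -1.32 ± 0.30 in null minus siRNA (adjusted p = 0.0249). As random blocks, the pairs left none of these last 4 differences past the threshold.

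The lists of folding genes gave fewer calls. Of 40 tested genes of ER folding and export, 21 read higher in siRNA than in wild type, with a median of 0.02. P4hb (3.51 ± 0.64, SE), Derl1 (2.59 ± 0.65) and Sec61g (1.60 ± 0.42) passed upward and Ssr3 (-2.65 ± 0.66) downward, beside 7.52% of all tested probes. With consecutive replicates as a random block none of these 4 passed (adjusted p = 0.0738, 0.218, 0.226 and 0.20), and with realigned wild-type replicates added Sec61g was 0.79 (adjusted p = 0.369). P4hb read 3.15, 1.23 and 4.21 in wild type. Its null minus wild type difference was 2.93 ± 0.64 (adjusted p = 0.0653), and null minus siRNA was -0.59 (adjusted p = 0.536). Of 45 tested genes of cytosolic folding, 23 read higher, with a median of 0.06, and Dnaja4 passed (1.44 ± 0.33). In null minus siRNA, Cct6a (-1.91 ± 0.45) and Stip1 (-1.11 ± 0.29) of the cytosolic list passed and no gene of the ER list did. The random block lost Dnaja4, Cct6a and Stip1 too (adjusted p = 0.148, 0.180 and 0.235). The medians in null minus siRNA were -0.23 for the ER list, with 23 of 40 lower, and -0.08 for the cytosolic list, with 26 of 45 lower, against 0.07 over all tested probes. In null minus wild type no gene of either list passed.

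**Figure D5:**
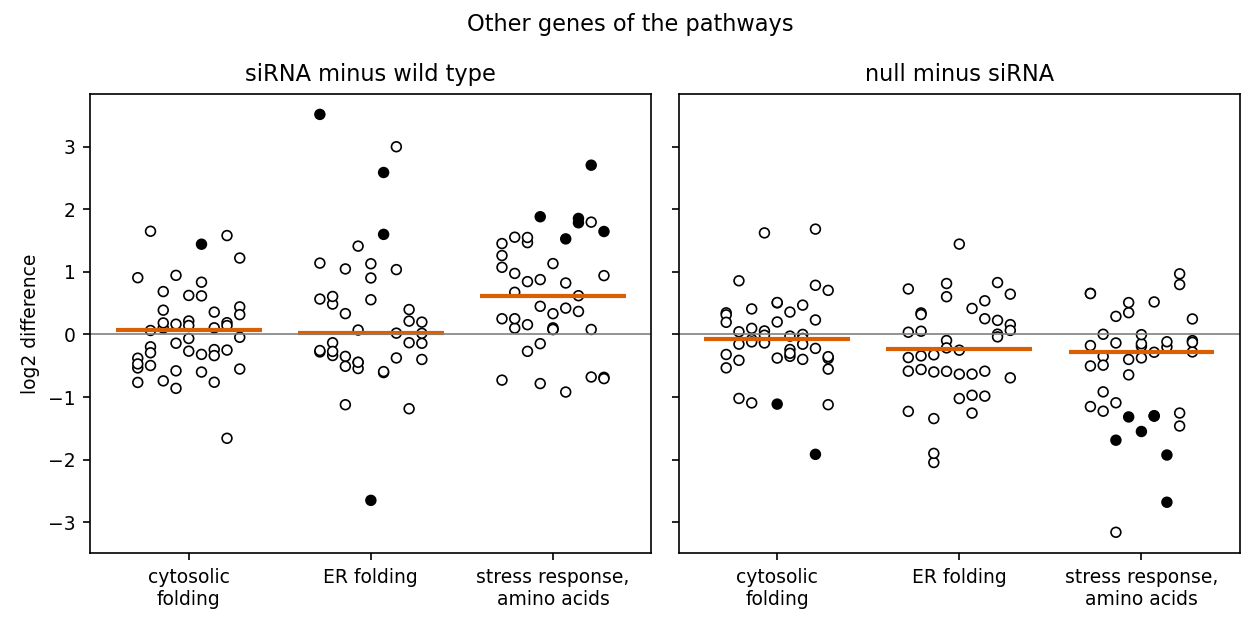
Fitted log2 differences of the other tested genes of the pathways (45 of cytosolic folding, 40 of ER folding, 41 of the stress response and amino acids), in siRNA minus wild type and null minus siRNA; filled points passed the threshold and bars are medians. The stress response list had a median of 0.62 in siRNA minus wild type, while the folding lists stood at 0.06 and 0.02.

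Markers of other programmes and cells differed between the same groups. Of 13 tested interferon-induced genes, 12 passed upward in siRNA minus wild type, with a median of 4.53, among them Cxcl10 (5.37 ± 0.40), Tgtp1 (5.43 ± 0.67) and Isg15 (4.53 ± 0.57, SE). The mean log2 value of the 11 interferon genes with a value in all 11 samples was 4.36 to 5.40 in siRNA, -0.32 to 1.39 in wild-type and 0.20 to 1.58 in null samples. Of 10 tested microglia markers, 6 passed downward in siRNA minus wild type, with a median of -2.16, and 9 of the 10 were above 0 in wild type. The mean of the 9 microglia markers with a value in all 11 samples was 1.41 to 2.16 in siRNA, 2.99 to 3.67 in wild-type and 2.12 to 4.50 in null samples. In null minus siRNA, where Asns, Ppp1r15a and Herpud1 passed, 12 of the 13 interferon genes passed downward (median -4.17) and 5 of the 10 microglia markers upward (median 1.50). The astrocyte genes Aldoc (3.30) and Sox9 (1.31), the oligodendrocyte gene Sox10 (1.66), the endothelial gene Flt1 (1.46) and the ependymal genes Ccdc39 (2.73) and Foxj1 (1.70) also passed upward there. They were 1 of 6 tested oligodendrocyte, 1 of 2 endothelial and 2 of 5 ependymal markers. Of the 5 ependymal markers 1 read lower (-0.82). The astrocyte markers did not move as 1 list: of 10 tested, 7 read higher and 3 lower in null minus siRNA, and Gja1 passed downward (-2.90). In siRNA minus wild type Aldoc passed downward (-2.34) and Aldh1l1 upward (1.82), and Flt1 (-1.74) and Ccdc39 (-1.89) passed downward. Of 4 tested neuron markers, 1 read higher and 3 lower in that comparison, and Tubb3 (-1.34) and Stmn2 (-1.73) passed downward. The mean of the 3 fibroblast and mural markers with a value in all 11 samples was 0.74 to 3.08 in wild-type, -1.84 to 1.21 in null and -1.63 to -0.070 in siRNA samples. Null replicates 1 and 2 stood at -1.84 and -1.76, and replicates 3 and 4 at 1.21 and 0.47. Of 4 tested markers of this list, 1 had a fitted difference above 0 and 3 below in siRNA minus wild type. Tagln alone passed, upward (1.68 ± 0.44). Its mean over the 9 samples with a value was -0.86 in wild type and -1.57 with siRNA, so the upward call rests on the covariates. No wild-type sample of low number could check the correction for replicate number. In these bulk samples fewer cells of a type and less RNA per cell cannot be told apart. The part of any of these in the differences of Atf4, Asns, Ppp1r15a and Herpud1 was not tested.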

How the data were processed

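RNA was measured on spotted oligonucleotide arrays, with 20 ug of total RNA labelled with Cy3 or Cy5 per sample, per the labels' protocols. The authors' deposited values are on a log2 scale, 1 for each probe in each sample, judged from the values themselves. No source used here gives the scanner, background correction, filter or normalization. Each of the 14 column medians was 0. Whether a missing value marks a dim or a damaged spot is unknown, and signal over background was not analysed here. Precision is limited by how few arrays there are. Of 33600 probes, 18179 had 1 gene symbol, 87 several and 15334 none.

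Groups came from the titles. The 3 comparisons came from 1 limma 3.58.1 model in R 4.3.3 (lmFit, eBayes, two-sided, Benjamini-Hochberg) over 11 samples, with replicates 1 and 2 against 3 and above, and dye, as covariates. Probes with at least 2 wild-type, 3 null and 3 siRNA values were tested, 16307 in all. The probe with the most values, then the brightest, stood for a gene. The script was tested on simulated data. Named genes were all 40 members, Gja1, and up to 3 called genes by p per direction, comparison and further list. The members, lists and tests were chosen with earlier results of these data known.

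Same-numbered samples deviated together: the correlations of their deviations from the group means over probes were 0.132 to 0.641 in 8 pairs, each above 0.1. Such samples also share the dye, and in null and siRNA the split of replicate numbers. These correlations therefore cannot show whether equal numbers share a culture or an array, and the replicate number served as a block in another setting only. The fit with the replicate number as a block was among 27 other settings, which covered normalization, filters, covariates, samples, spots and calling rule. It left out wild-type replicate 6, a number that no other group has.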

Additional observations from a re-analysis of the deposited data

Results flagged for a closer look

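The difference between null and siRNA samples was itself unlike in replicates 1 and 2 and in replicates 3 and 4 for 2 of 27 member genes, by an interaction term in limma over 8 samples. For Dnajc3 the null minus siRNA difference was 2.53 greater on the log2 scale in replicates 1 and 2 (1.50 against -1.03, adjusted p = 0.0113). For Edem1 it was 2.15 greater (0.49 against -1.66, adjusted p = 0.0128), with null values of 1.33 and 1.56 against siRNA values of 0.67 and 1.23 in replicates 1 and 2, and null values of 0.14 and 0.67 against 2.03 and 2.10 in replicates 3 and 4. The same term passed for 18.7% of all tested probes (3055 of 16307). No sample stood apart from the others of its group in 53 checks of groups of 4, where chance would mark about 1 in 20 if the 4 values were independent. As replicates 1 and 2, and 3 and 4, were alike, these checks say little about single samples.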

How the results depend on the processing

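With 1 sample left out at a time, the calls were 1 to 133 probes in null minus wild type, 231 to 1191 in siRNA minus wild type, 311 to 1437 in null minus siRNA and 5956 to 7899 between the replicate numbers, and for the members 0, 1 to 4, 1 to 4 and 7 to 11. The medians of all members, heat shock, ER folding and integrated stress response genes then ran in null minus wild type from -0.22 to 0.10, -0.26 to 0.03, -0.33 to 0.19 and -0.12 to 0.44. In siRNA minus wild type they ran from 0.08 to 0.38, 0.10 to 0.43, -0.49 to 0.11 and 0.99 to 1.54, and in null minus siRNA from -0.50 to -0.27, -0.52 to -0.27, -0.13 to 0.26 and -1.34 to -0.93. Gja1 in null minus wild type ran from -4.00 to -2.65. Probes called in null minus wild type numbered 146 without the dimmest 25% of probes, 145 without the dye term and 181 with the replicate number as a block. That block called 4 members in siRNA minus wild type (Hspa4 and Ppp1r15a gained, Hspb1 lost) and 4 in null minus siRNA (Hspa4 gained), and changed no other member's call in these comparisons. It left out wild-type replicate 6. The main model without that sample also called 4 members in siRNA minus wild type, 3 higher and 1 lower. The part of the block itself in these changes was not tested. Without the split of replicate numbers, 0, 39 and 73 probes were called in null minus wild type, siRNA minus wild type and null minus siRNA, with 0 and 1 members in the latter comparisons. The null minus wild type medians were then -0.51 over all members and -0.59 for ER folding, the siRNA minus wild type median for ER folding was -0.46, and Gja1 was -5.21, no longer called. With consecutive replicates as a random block, 0, 202 and 120 probes were called and 4979 between the replicate numbers, with 0, 0 and 6 members in the last 3, and Gja1 was -3.10, not called. All 14 samples as deposited gave 0, 43 and 23 probes, 0 and 0 members, Gja1 at -5.21 and Herpud1 in siRNA minus wild type at 0.37. The 13 samples with wild-type replicates 1 and 2 realigned gave 0, 782 and 608 probes, Gja1 at -3.31, not called, and Herpud1 at 0.43 in siRNA minus wild type and -0.64 between the replicate numbers, values that rest on readings of -0.51 and 0.54 in the realigned samples, where its spot may be misplaced. Replicates 3 and above alone gave 877 probes and 1 member (Hspb1, -2.20) in null minus wild type, 1893 probes in null minus siRNA, and medians of 0.79 (integrated stress response, null minus wild type) and -0.55 (ER folding, null minus siRNA). The median of 0.79 is over 6 genes, as Phgdh was tested in that setting, against 5 in the main fit. Replicates 1 and 2 alone gave 5529 probes, 13 members and a median of -0.085 over all members in null minus siRNA. An unadjusted p with a 1.5-fold change called 2545, 3849 and 4029 probes and 4, 9 and 8 members. Array weights gave 12 probes in null minus wild type, and 2449 probes and 5 members in null minus siRNA. Removing a local spatial trend, a setting chosen after seeing the data, gave 272, 2558 and 2340 probes, 1, 7 and 5 members, a median of -0.41 for ER folding in siRNA minus wild type and 0.58 for Canx between the replicate numbers. It moved the higher share of called probes from 71.8% to 58.6% in siRNA minus wild type, from 59.5% to 41.5% in null minus siRNA, from 13.2% to 43.1% between the replicate numbers (3276 higher and 4333 lower, median over all probes from -0.76 to -0.10) and from 76.3% to 58.8% in null minus wild type (median from 0.20 to -0.03). The cause of these changes was not tested. Of values of single genes, 2320 kept their direction and side of the threshold, 53 gained and 80 lost a call. Another 198 changed sign where the main fit gave no call, and 4 turned where it gave a call.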
